A study of Drosophila melanogaster with 9 samples.

Results

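The *dpr*, DIP, *beat* and *side* genes encode cell-surface and secreted proteins of the immunoglobulin superfamily, and 52 of the 13676 genes in the count table belong to these 4 families. Members were taken by their FlyBase symbol alone, which gave 20 *dpr* genes, 10 DIP genes, 14 *beat* genes and 8 *side* genes. The annotation holds 54 such symbols, and the other 2, *dpr21* and *DIP-lambda*, were not analysed here. RNA came from eye-antennal imaginal discs of wildtype *D. melanogaster* (OregonR) raised at 25ºC, at 72h AEL (after egg laying, late L2 larvae), 96h AEL (mid L3) and 120h AEL (late L3), with 3 libraries per stage named A, B and C. Each library pooled 120 to 130, 80 to 90 or 40 to 50 whole discs from the youngest to the oldest stage, so a value averages the eye field, the antennal field and head tissue. Discs at 72h AEL came from both sexes and those at 96h and 120h AEL from females only, so that in each comparison with 72h AEL the effect of sex cannot be told apart from that of stage. The labels mark the 120h AEL libraries as a reanalysis of earlier deposited samples, and any difference of batch between them and the other libraries cannot be told apart from stage.

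Dpr proteins (defective proboscis extension response) and DIPs (Dpr-interacting proteins) bind each other across the gap between neighbouring cells, and each DIP recognises its own subset of Dprs. Beat proteins (beaten path) bind Side proteins (sidestep) in the same manner. In the nervous system of the fly, neurons display different combinations of the 4 families, and matched pairs help axons to choose targets, synaptic partners to recognise each other and neurons to survive. In the eye disc, photoreceptor neurons are born behind the morphogenetic furrow during the third instar, and their axons grow out to the brain while later cells are still being recruited. Measured over the whole disc, the question was which of these genes are present at each stage, and which start between 72h and 120h AEL.

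For the stages 72h, 96h and 120h AEL the total counts per library were 27681462 to 35818587, 22786664 to 37305763 and 17675472 to 28486024. Levels are given as CPM, counts relative to the size of the library, on sizes scaled by TMM. The lowest countable level, taken as 3 counts, was 0.0738 to 0.148 CPM, and this floor covers counting error only. Libraries A and B of 72h AEL differed by no more than sampling noise (chi-square of 1.02 per gene, against 36.2 to 488 for the other 8 pairs within a stage) and were counted as 1 sample, which left n = 2 at 72h AEL and n = 3 at each later stage. The libraries also differed in how their counts ran with the length of the coding sequence: across 10512 genes, Spearman's rho between length and deviation from the mean log2 CPM was -0.444 to -0.31, 0.0128 to 0.513 and 0.0584 to 0.422 in the libraries of these stages, where genes are not independent replicates. This trend touches the *side* genes most, since their coding sequences (2820 to 5070 bp) are longer than that of any other member (at most 2019 bp), and their changes from 72h AEL that passed the test are therefore also given with it taken out. Scaling by library size in place of TMM moved the middle of all log2 fold changes from -0.05 to 0.41 for 72h to 96h AEL and from -0.00 to 0.61 for 72h to 120h AEL, and turned the split of called genes from 1794 higher and 2206 lower to 3233 and 1419 for the first of these and from 2368 and 2909 to 4473 and 1862 for the second.

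Many wiring genes were scarce in the disc. Under 1 CPM in all 9 libraries were 20 of the 52 genes, of which 8 were *dpr*, 4 DIP and 8 *beat* genes and 0 *side* genes. The highest level that each of these 20 reached in any library was between 0.207 and 0.991 CPM, with a median of 0.444. At the other end, 7 genes had 1 CPM or more in all 9 libraries, namely *dpr16*, *dpr17*, *side*, *side-III*, *side-IV*, *side-V* and *side-VII*. With 1 CPM or more in every library of a stage there were 11, 10 and 25 members at the successive stages. None of these counts was made over all genes.

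**Figure D1:**
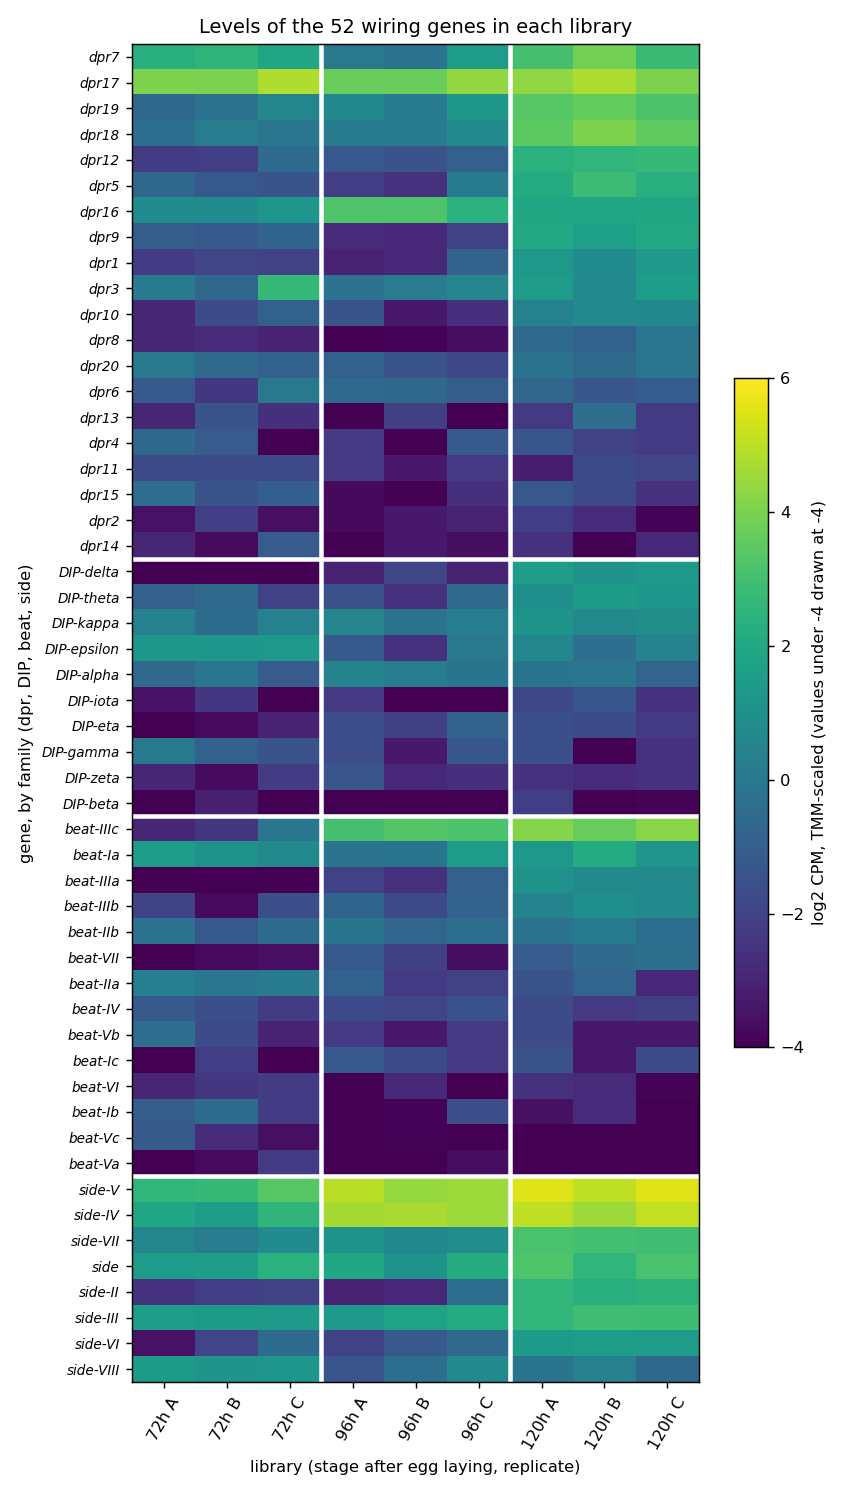
Heat map of TMM-scaled log2 CPM for the 52 genes (rows, by family and by level at 120h AEL) in the 9 libraries (columns, replicates A to C of each stage), with values under -4 drawn at -4. The columns of 120h AEL are brighter than those of 72h AEL for genes such as *dpr12*, *dpr9*, *DIP-delta*, *beat-IIIa* and *side-II*, while 20 genes are under 1 CPM, which is 0 on this scale, in every column.

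A gene was taken to start by 120h AEL when it had under 1 CPM in each library of 72h AEL and 1 CPM or more in each library of 120h AEL. By this description, which is no test, 12 genes started: *dpr1*, *dpr5*, *dpr9*, *dpr10* and *dpr12*, *DIP-delta* and *DIP-theta*, *beat-IIIa*, *beat-IIIb* and *beat-IIIc*, and *side-II* and *side-VI*. How many of all genes start by this rule was not counted. The rule itself places the 120h AEL libraries of a starting gene above its 72h AEL libraries. Of the 12, *beat-IIIc* was already at 1 CPM or more in 3 of the 96h AEL libraries and *dpr5* in 1, while the other 10 were under 1 CPM in all libraries of 96h AEL. The lowest value of a starting gene at 120h AEL was 1.30 CPM, in *dpr10*, and the highest at 72h AEL was 0.95 CPM, in *beat-IIIc*. Just outside the rule were *dpr18*, with 1.14 CPM in library B of 72h AEL, *dpr19*, with 1.49 CPM in library C, and *dpr8*, which reached only 0.544 to 0.938 CPM at 120h AEL. The set depends on the level chosen, since 6 genes started at a threshold of 0.5 CPM, where *dpr8* entered. At 2 CPM 10 started, where *dpr18*, *dpr19* and *side-VII* entered. Only *DIP-delta* and *side-II* started at each of 0.5, 1 and 2 CPM.

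Stages were then compared gene by gene. Between 72h and 96h AEL, 30 of the 52 members had enough counts to be tested, and 4 rose (*beat-IIIc*, *dpr16*, *side-IV* and *side-V*) and 1 fell (*dpr15*). Of all 10330 genes tested, 17.4% rose and 21.4% fell. From 96h to 120h AEL, 34 members were tested, 18 rose and 0 fell, against 8.79% and 6.51% of 9986 genes. At an unadjusted p under 0.05, 24 of the 34 rose and 1, *dpr16*, fell, and DESeq2 called 21 higher and 1 lower. Over both steps together, from 72h to 120h AEL, 38 members were tested, and 20 rose and 1 (*side-VIII*) fell, against 22.4% and 27.6% of 10553 genes. Single libraries moved these counts: from 72h to 96h AEL 2 rose without 96h A and 1 without 96h B, and from 96h to 120h AEL 11 rose without 96h B and 10 without 120h C. The filter lets in genes through the stage in which they are high: 3 of the 34 and 7 of the 38 had under 10 counts in each earlier library. These 3 (*dpr8*, *dpr9* and *DIP-delta*) and 7 (*dpr1*, *dpr8*, *DIP-delta*, *beat-IIIa*, *beat-IIIb*, *beat-VII* and *side-II*) rose. They were tested only because they were high at 120h AEL, so their adjusted p-values given below are not separate support for a rise. Apart from them, 15 of 31 and 13 of 31 members rose. Of the 30 tested from 72h to 96h AEL, *beat-IIIb* had under 10 counts in each earlier library and was not called. In the same comparison *dpr15*, the member that fell, had under 10 counts in each later library.

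For the members tested, the log2 fold changes in these 3 comparisons had medians of -0.09, 1.35 and 1.66, beside -0.05, 0.01 and -0.00 for all genes tested. Counted in either direction, 5 of 30, 18 of 34 and 21 of 38 members passed, beside 38.7%, 15.3% and 50.0% of all genes. The libraries of both stages did not overlap, with the later stage higher, in 4, 24 and 24 members, beside 33.8%, 15.9% and 35.9% of all genes, and with the later stage lower in 5, 1 and 4, beside 33.8%, 18.1% and 35.4%. Between 96h and 120h AEL the medians of the families were 2.80 for 14 *dpr*, 1.28 for 5 DIP, 1.03 for 7 *beat* and 1.15 for 8 *side* genes, of which 9, 2, 3 and 4 rose. Between 72h and 96h AEL, 1 of 13 *dpr*, 0 of 5 DIP, 1 of 5 *beat* and 2 of 7 *side* genes rose. The 2 genes that rose in both transitions were *beat-IIIc* and *side-V*, 16 rose in the second alone, and *dpr16* and *side-IV* rose in the first alone. Whether a gene's changes in the 2 transitions differ was not tested. In all, 24 members passed the test in at least 1 of the 3 comparisons, a count that was not made over all genes. Another 14 were too low to be tested in any, 4 of them *dpr*, 4 DIP and 6 *beat* genes.

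**Figure D2:**
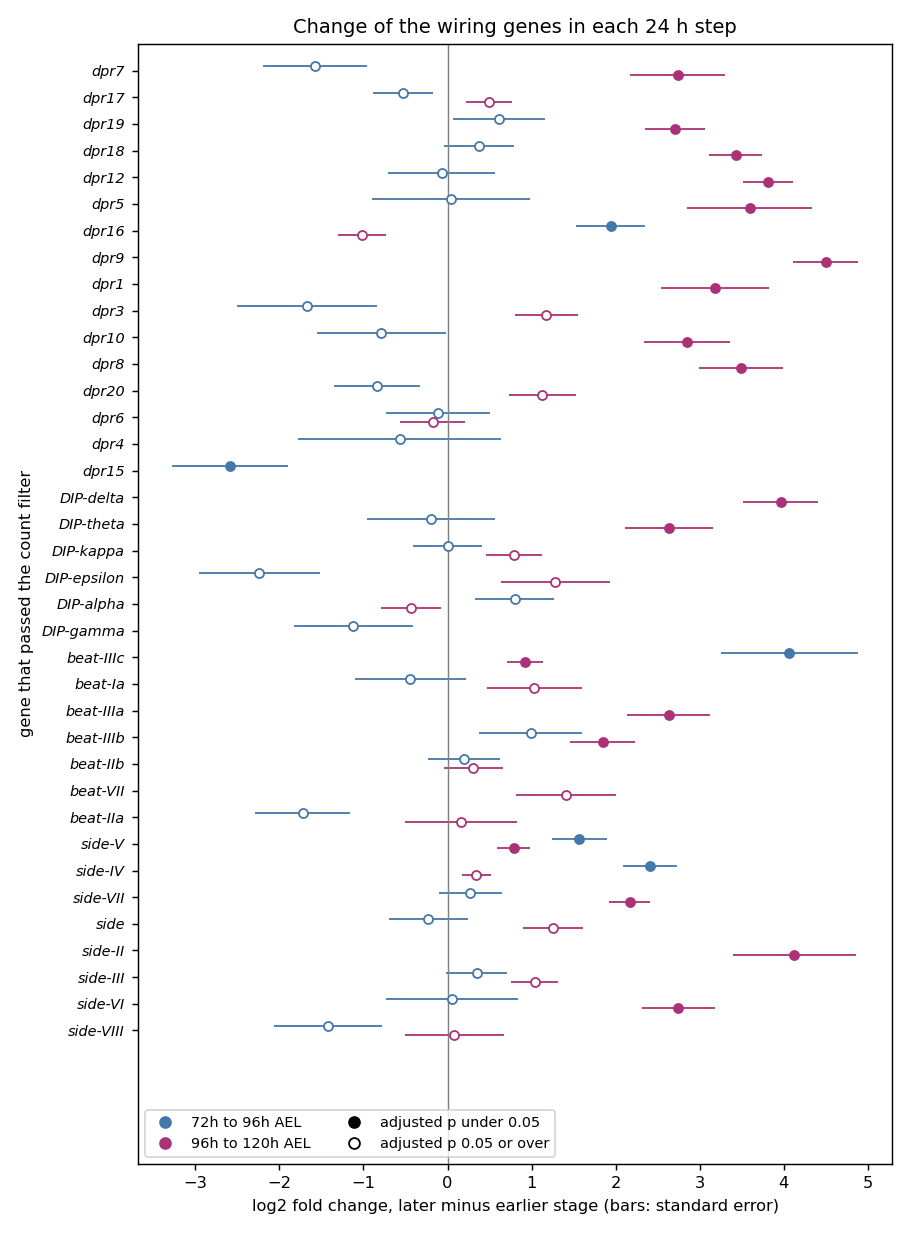
Log2 fold changes (points, later minus earlier stage, with SE bars) of each member tested from 72h to 96h AEL (blue) and from 96h to 120h AEL (purple), filled where the adjusted p is under 0.05. Of the purple points 18 are filled and all 18 lie to the right of 0, while of the blue points 4 are filled to the right and 1, *dpr15*, to the left.

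The *dpr* genes were the largest family and held the most late risers by number, 9 of 14 tested from 96h to 120h AEL. In that step 2 of 5 DIP, 3 of 7 *beat* and 4 of 8 *side* genes rose. From 72h to 120h AEL 8 of 16 *dpr*, 2 of 6 DIP, 4 of 8 *beat* and 6 of 8 *side* genes rose. The families were not tested against each other. *dpr12*, whose protein binds DIP-delta and is known from the mushroom body of the brain, measured 0.217, 0.229 and 0.702 CPM at 72h AEL, 0.418, 0.367 and 0.519 CPM at 96h AEL and 5.21, 6.03 and 6.43 CPM at 120h AEL. Its 3 libraries of 120h AEL lay far above the other 6, and 72h and 96h AEL overlapped. Its log2 fold change was 3.82 ± 0.30 (SE, adjusted p = 0.000933) from 96h to 120h AEL and 3.69 ± 0.57 (SE, adjusted p = 0.00531) from 72h AEL. *dpr9* was lowest at the middle stage, with 0.477, 0.419 and 0.578 CPM at 72h AEL, 0.147, 0.134 and 0.24 CPM at 96h AEL and 4.08, 3.17 and 4.09 CPM at 120h AEL. No library of 96h AEL reached those of 72h AEL, and those of 120h AEL were above both. The log2 fold change of *dpr9* from 96h to 120h AEL was 4.50 ± 0.39 (SE, adjusted p = 0.00105), and from 72h to 120h AEL it was 2.85 ± 0.36 (SE, adjusted p = 0.00295).

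Other *dpr* genes rose from a level that was already countable. *dpr18* had 0.78, 1.14 and 0.95 CPM at 72h AEL, 1.08, 1.07 and 1.68 CPM at 96h AEL and 11.2, 16.6 and 11.7 CPM at 120h AEL, and *dpr19* had 0.65, 0.838 and 1.49 CPM at 72h AEL, 1.6, 1.1 and 2.48 CPM at 96h AEL and 10.7, 12.5 and 9.12 CPM at 120h AEL. In both genes 72h and 96h AEL overlapped and the lowest library of 120h AEL was above the highest earlier one. From 96h to 120h AEL *dpr18* rose by 3.43 ± 0.31 (SE, adjusted p = 0.00127) on the log2 scale and *dpr19* by 2.71 ± 0.36 (SE, adjusted p = 0.00393), and from 72h to 120h AEL by 3.72 ± 0.33 (SE, adjusted p = 0.00101) and 3.25 ± 0.41 (SE, adjusted p = 0.00292). *dpr7*, the one member on chromosome 4, was at 4.98, 5.6 and 3.8 CPM at 72h AEL, 1.01, 0.868 and 2.84 CPM at 96h AEL and 8.24, 14.9 and 6.97 CPM at 120h AEL. It stood lower at 96h AEL than at 72h AEL in every library, with a log2 fold change of -1.57 ± 0.62 (SE, adjusted p = 0.0949) that missed the threshold, and rose to 120h AEL by 2.74 ± 0.57 (SE, adjusted p = 0.0198), a change that was short of the threshold without 96h A (adjusted p = 0.0622) or 96h B (adjusted p = 0.0716). Set against 72h AEL, its 120h AEL level was higher by 1.08 ± 0.44 (SE, adjusted p = 0.0871), also short of the threshold although the libraries did not overlap.

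Among the *dpr* genes that started by 120h AEL were also *dpr5*, *dpr1* and *dpr10*. *dpr5* had 0.65, 0.419 and 0.372 CPM at 72h AEL, 0.221, 0.167 and 1.08 CPM at 96h AEL and 4.42, 7.32 and 4.99 CPM at 120h AEL, with library C of 96h AEL apart from A and B. Its log2 fold change was 3.60 ± 0.74 (SE, adjusted p = 0.0196) from 96h to 120h AEL and 3.55 ± 0.44 (SE, adjusted p = 0.00267) from 72h to 120h AEL. *dpr1*, the founding gene of the family, named for a failure to avoid salt in the proboscis extension response, had 0.217, 0.267 and 0.248 CPM at 72h AEL, 0.123, 0.134 and 0.559 CPM at 96h AEL and 2.55, 1.78 and 2.58 CPM at 120h AEL, and rose by 3.18 ± 0.64 (SE, adjusted p = 0.0182) and 3.17 ± 0.42 (SE, adjusted p = 0.00319) in these comparisons. For *dpr10*, a ligand of DIP-alpha that larval muscles display to motor neurons, the values were 0.13, 0.305 and 0.537 CPM at 72h AEL, 0.369, 0.1 and 0.16 CPM at 96h AEL and 1.3, 1.68 and 1.57 CPM at 120h AEL, with log2 fold changes of 2.85 ± 0.52 (SE, adjusted p = 0.012) and 2.01 ± 0.50 (SE, adjusted p = 0.0226). In all 3 genes the libraries of 120h AEL were above every library of 96h AEL, and above those of 72h AEL by the rule for a start. The calls from 96h to 120h AEL were lost without some single libraries, for *dpr5* without 96h A, 96h B or 120h C (adjusted p = 0.0532 to 0.061), for *dpr1* without 96h B, 120h A or 120h C (adjusted p = 0.0623 to 0.0743) and for *dpr10* without 120h C (adjusted p = 0.0533). The call of *dpr10* from 72h to 120h AEL was lost without 120h A (adjusted p = 0.0596) or 120h C (adjusted p = 0.0718).

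*dpr8* rose without reaching 1 CPM. It had 2 counts in each library of 96h AEL, and measured 0.13, 0.152 and 0.124 CPM at 72h AEL, 0.0492, 0.0668 and 0.0799 CPM at 96h AEL and 0.68, 0.544 and 0.938 CPM at 120h AEL. Pooled over libraries, 63 counts at 120h AEL against 6 at 96h AEL gave a ratio of 11.8 (95% exact interval 5.11 to 33.3, counting error only). The fitted log2 fold change was 3.49 ± 0.50 (SE, adjusted p = 0.00546) from 96h AEL and 2.35 ± 0.52 (SE, adjusted p = 0.0156) from 72h AEL. Without a library the call of *dpr8* from 72h to 120h AEL was lost 3 times (adjusted p = 0.0506 without 120h A, 0.0543 without 120h C and 0.0619 without 72h C).

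Not every *dpr* gene followed the late rise. *dpr16* was highest at the middle stage, with 1.82, 1.75 and 2.35 CPM at 72h AEL, 9.46, 9.62 and 5.27 CPM at 96h AEL and 3.94, 3.66 and 3.85 CPM at 120h AEL. Its rise to 96h AEL was 1.94 ± 0.41 (SE, adjusted p = 0.0225) on the log2 scale, and the later difference of -1.02 ± 0.29 (SE, adjusted p = 0.0575) missed the threshold although the libraries of 96h and 120h AEL did not overlap. The call was lost without 96h A (adjusted p = 0.0583) or without 96h B (adjusted p = 0.0872). *dpr15* went from 0.737, 0.381 and 0.496 CPM at 72h AEL, 0.0737, 0.0334 and 0.16 CPM at 96h AEL and 0.425, 0.297 and 0.168 CPM at 120h AEL, with 1 to 4 counts per library at 96h AEL. It fell from 72h to 96h AEL with -2.59 ± 0.69 (SE, adjusted p = 0.0368), but the call did not hold when 72h C, 96h A or 96h B was left out, with library size as the scale or without the filter on low counts (adjusted p = 0.0552 to 0.107). In *dpr17* the stages overlapped throughout, with 16.6, 16.2 and 28.2 CPM at 72h AEL, 13, 13.1 and 21 CPM at 96h AEL and 19.99, 27.1 and 16.4 CPM at 120h AEL. *dpr3* had 1 library that stood apart, 72h C at 6.53 CPM against 0.648 to 3.05 CPM in the other 8, and passed no test. Of the other *dpr* genes, *dpr20* stayed between 0.280 and 1.04 CPM, and *dpr2*, *dpr4*, *dpr6*, *dpr11*, *dpr13* and *dpr14* stayed under 1 CPM.

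Per kb of coding sequence, the *dpr* genes spanned 0.099 to 10.7 CPM at 120h AEL, with a median of 1.42. The order at the top was *dpr7* (10.7 ± 4.56, SD, n = 3), *dpr17* (10.6 ± 2.73), *dpr19* (9.31 ± 1.47), *dpr18* (8.43 ± 1.91), *dpr12* (6.01 ± 0.636) and *dpr5* (5.52 ± 1.52). Neighbours among the first 4 lay within 1 SD of each other, and so did *dpr12* and *dpr5*.

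DIP genes were the lowest of the families when summed per kb of coding sequence, and *DIP-delta* was the one with the largest change. It had 0.0433, 0 and 0.0413 CPM at 72h AEL, 0.123, 0.267 and 0.12 CPM at 96h AEL and 2.94, 2.13 and 2.65 CPM at 120h AEL. At 72h AEL this was 2 counts over 3 libraries, and at 120h AEL 226, a ratio of 97.3 (95% exact interval 26.6 to 808, counting error only). The 3 stages did not overlap. Fitted log2 fold changes were 3.96 ± 0.44 (SE, adjusted p = 0.00229) from 96h to 120h AEL and 6.30 ± 0.55 (SE, adjusted p = 0.000966) from 72h to 120h AEL, and from 72h to 96h AEL the gene was too low to be tested.

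*DIP-theta* also started by 120h AEL, with 0.52, 0.686 and 0.248 CPM at 72h AEL, 0.344, 0.167 and 0.679 CPM at 96h AEL and 1.98, 2.72 and 2.38 CPM at 120h AEL. It rose by 2.64 ± 0.53 (SE, adjusted p = 0.0172) from 96h AEL and by 2.34 ± 0.51 (SE, adjusted p = 0.0154) from 72h AEL, and both calls were lost without 120h C (adjusted p = 0.0647 and 0.0528), the first also without 96h A (adjusted p = 0.0582). *DIP-kappa* had 1.3, 0.724 and 1.32 CPM at 72h AEL, 1.48, 0.901 and 1.16 CPM at 96h AEL and 2.27, 1.63 and 1.94 CPM at 120h AEL. The 120h AEL libraries were above all others, yet the difference from 96h AEL of 0.79 ± 0.33 (SE, adjusted p = 0.175) missed the threshold. *DIP-epsilon* was highest at 72h AEL, with 2.47, 2.36 and 2.52 CPM at 72h AEL, 0.443, 0.167 and 0.999 CPM at 96h AEL and 1.56, 0.791 and 1.34 CPM at 120h AEL. No later library reached its 72h AEL values, and its log2 fold changes of -2.24 ± 0.72 (SE, adjusted p = 0.0582) to 96h AEL and -1.03 ± 0.39 (SE, adjusted p = 0.0773) to 120h AEL missed the threshold. *DIP-alpha*, known from motor neurons and from neurons of the medulla in the optic lobe, had 0.693, 0.953 and 0.454 CPM at 72h AEL, 1.4, 1.17 and 0.919 CPM at 96h AEL and 0.934, 0.94 and 0.603 CPM at 120h AEL, and *DIP-gamma*, known from the medulla neurons that receive input from R7 photoreceptors, had 1.04, 0.533 and 0.372 CPM at 72h AEL, 0.32, 0.1 and 0.4 CPM at 96h AEL and 0.34, 0.0495 and 0.168 CPM at 120h AEL. Neither passed a test, and the stages overlapped except that *DIP-gamma* at 72h AEL was above 120h AEL. *DIP-beta*, *DIP-eta*, *DIP-iota* and *DIP-zeta* stayed at or under 0.559 CPM and were too low to be tested. Per kb at 120h AEL the DIP genes reached at most 1.82 CPM, in *DIP-delta* (1.82 ± 0.294), followed by *DIP-theta* (1.3 ± 0.203) and *DIP-kappa* (0.964 ± 0.157).

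In the *beat* family 1 gene held most of the counts at 120h AEL. *beat-IIIc* had 0.13, 0.191 and 0.95 CPM at 72h AEL, 8.21, 10.1 and 9.03 CPM at 96h AEL and 18.2, 12.7 and 18.7 CPM at 120h AEL. It was the member that came on first among the 12 that started: the 96h AEL libraries already lay above those of 72h AEL, and those of 120h AEL lay higher still. The log2 fold change was 4.07 ± 0.81 (SE, adjusted p = 0.0199) from 72h to 96h AEL, 0.92 ± 0.21 (SE, adjusted p = 0.0299) from 96h to 120h AEL and 4.96 ± 0.80 (SE, adjusted p = 0.00615) from 72h to 120h AEL. The first call was lost without 96h B (adjusted p = 0.0709). The second was lost under 8 of 15 alternatives, with a log2 fold change of 0.83 to 1.08 and an adjusted p of at most 0.289. Per kb of coding sequence *beat-IIIc* was the highest of the 52 members at 120h AEL (14.3 ± 2.9), and *side-V* (11.8 ± 2.07) came within 1 SD of it.

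The other 2 genes of the *beat-III* group came later. *beat-IIIa* had 0, 0.0381 and 0 CPM at 72h AEL, 0.246, 0.167 and 0.519 CPM at 96h AEL and 2.15, 1.68 and 1.64 CPM at 120h AEL, which is 1 count over the libraries of 72h AEL and 159 over those of 120h AEL, a ratio of 137 (95% exact interval 24.2 to 5440, counting error only). *beat-IIIb* had 0.26, 0.0762 and 0.33 CPM at 72h AEL, 0.59, 0.3 and 0.559 CPM at 96h AEL and 1.39, 1.98 and 1.68 CPM at 120h AEL. For both, each library of 120h AEL was above each of 96h AEL, and above those of 72h AEL by the rule for a start. From 96h to 120h AEL *beat-IIIa* rose by 2.63 ± 0.49 (SE, adjusted p = 0.0135) and *beat-IIIb* by 1.85 ± 0.39 (SE, adjusted p = 0.0214) on the log2 scale, and from 72h to 120h AEL by 6.69 ± 0.71 (SE, adjusted p = 0.00167) and 2.77 ± 0.49 (SE, adjusted p = 0.00779). The calls from 96h to 120h AEL were lost without some single libraries, 3 for *beat-IIIa* (96h B, 120h A and 120h C, adjusted p = 0.051 to 0.0592) and 4 for *beat-IIIb* (96h B and each of 120h AEL, adjusted p = 0.058 to 0.0863), while those from 72h AEL were kept.

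*beat-VII* rose at a very low level, with 0.0433, 0.0762 and 0.0826 CPM at 72h AEL, 0.418, 0.234 and 0.0799 CPM at 96h AEL and 0.453, 0.692 and 0.804 CPM at 120h AEL. Its counts were 5 at 72h AEL and 54 at 120h AEL, a ratio of 9.30 (95% exact interval 3.75 to 29.8, counting error only), and the fitted log2 fold change was 3.10 ± 0.59 (SE, adjusted p = 0.00997). In this comparison the filter let the gene in through 120h AEL alone. *beat-Ia*, whose secreted product lets motor axons leave their bundle at the target, was second to *beat-IIIc* per kb of coding sequence at 120h AEL, with 2.77, 2.21 and 1.69 CPM at 72h AEL, 0.885, 0.935 and 2.92 CPM at 96h AEL and 2.55, 4.45 and 2.31 CPM at 120h AEL. The stages overlapped and no test was passed. *beat-IIa* had 1.26, 0.953 and 1.07 CPM at 72h AEL, 0.541, 0.2 and 0.24 CPM at 96h AEL and 0.368, 0.594 and 0.134 CPM at 120h AEL, and *beat-IIb* had 0.823, 0.419 and 0.702 CPM at 72h AEL, 0.934, 0.601 and 0.759 CPM at 96h AEL and 0.878, 1.09 and 0.771 CPM at 120h AEL. The 72h AEL libraries of *beat-IIa* were above all later ones, but its log2 fold changes of -1.73 ± 0.56 (SE, adjusted p = 0.0591) to 96h AEL and -1.64 ± 0.61 (SE, adjusted p = 0.0719) to 120h AEL missed the threshold. The remaining *beat* genes, *beat-Ib*, *beat-Ic*, *beat-IV*, *beat-Va*, *beat-Vb*, *beat-Vc* and *beat-VI*, were under 1 CPM in every library.

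The *side* genes were the fewest, and 7 of the 8 had 1 CPM or more in every library of 120h AEL. The 2 with the highest level per kb rose early. *side-V* had 5.93, 6.44 and 10.5 CPM at 72h AEL, 31.1, 21.5 and 23.1 CPM at 96h AEL and 45.6, 33 and 45.8 CPM at 120h AEL, and *side-IV*, which with its Beat-II partners guides synapse formation between lamina neurons of the visual system, had 3.68, 3.01 and 5.91 CPM at 72h AEL, 25.2, 26.6 and 22.9 CPM at 96h AEL and 33.1, 23.4 and 33.8 CPM at 120h AEL. In both genes the libraries of 96h AEL were all above those of 72h AEL, and from 96h to 120h AEL *side-V* separated again while *side-IV* overlapped. From 72h to 96h AEL the log2 fold change was 1.56 ± 0.33 (SE, adjusted p = 0.0218) for *side-V* and 2.41 ± 0.32 (SE, adjusted p = 0.00823) for *side-IV*, and from 96h to 120h AEL it was 0.79 ± 0.20 (SE, adjusted p = 0.0403) and 0.34 ± 0.17 (SE, adjusted p = 0.257). With the trend on coding length taken out, the early rise became 1.60 ± 0.24 for *side-IV* (SE, adjusted p = 0.0094) and 0.61 ± 0.21 for *side-V* (SE, adjusted p = 0.0709), so that the call for *side-V* was lost. Over both steps, from 72h to 120h AEL, the rise of *side-V* was 2.28 ± 0.31 (SE, adjusted p = 0.00343) and that of *side-IV* 2.68 ± 0.35 (SE, adjusted p = 0.00303), and with the trend taken out 1.28 (adjusted p = 0.00387) and 1.80 (adjusted p = 0.00279). The later rise of *side-V* was lost under 6 of 15 alternatives, with an adjusted p of at most 0.165, and its early rise was also lost without 96h A or 96h B (adjusted p = 0.0525 and 0.0698).

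Late risers of the family were *side-II*, *side-VI* and *side-VII*. *side-II* had 0.173, 0.229 and 0.248 CPM at 72h AEL, 0.123, 0.134 and 0.759 CPM at 96h AEL and 5.95, 5 and 5.56 CPM at 120h AEL. Its 120h AEL libraries were several-fold above the highest earlier one, 96h C. It rose by 4.12 ± 0.73 (SE, adjusted p = 0.0114) from 96h AEL and by 4.56 ± 0.37 (SE, adjusted p = 0.000767) from 72h AEL, and by 3.98 and 3.61 in these comparisons with the length trend taken out. *side-VI* had 0.0867, 0.267 and 0.702 CPM at 72h AEL, 0.246, 0.434 and 0.679 CPM at 96h AEL and 2.75, 3.07 and 2.85 CPM at 120h AEL, with log2 fold changes of 2.75 ± 0.43 (SE, adjusted p = 0.00771) and 2.74 ± 0.62 (SE, adjusted p = 0.0169). With the length trend taken out they were 2.65 (adjusted p = 0.0128) and 1.85 (adjusted p = 0.0325). The second was lost without 120h A (adjusted p = 0.0501) or 120h C (adjusted p = 0.0533). *side-VII* had 1.47, 1.18 and 1.78 CPM at 72h AEL, 2.21, 1.57 and 1.92 CPM at 96h AEL and 8.69, 8.16 and 7.67 CPM at 120h AEL and rose by 2.17 ± 0.25 (SE, adjusted p = 0.00233) and 2.37 ± 0.30 (SE, adjusted p = 0.0028). The rise of *side-VII* from 72h AEL was 1.53 with the length trend taken out (adjusted p = 0.00599).

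The 3 remaining genes differed in direction. *side* itself, which muscles and other substrates of motor axons display to attract them, had 2.82, 3.05 and 5.16 CPM at 72h AEL, 3.88, 2.14 and 4.51 CPM at 96h AEL and 9.37, 5.93 and 8.78 CPM at 120h AEL. Its 120h AEL libraries were above all others, and its changes of 1.26 ± 0.35 (SE, adjusted p = 0.0584) from 96h AEL and 0.96 ± 0.38 (SE, adjusted p = 0.0827) from 72h AEL missed the threshold. *side-III*, with the longest coding sequence of the members, had 3.03, 2.71 and 2.6 CPM at 72h AEL, 2.68, 3.5 and 4.47 CPM at 96h AEL and 5.92, 7.67 and 7.41 CPM at 120h AEL, and rose from 72h to 120h AEL by 1.31 ± 0.29 (SE, adjusted p = 0.0152). With the length trend taken out this became 0.05 (adjusted p = 0.906), and it was lost without 120h C (adjusted p = 0.0744). *side-VIII* was highest at 72h AEL, with 2.73, 2.25 and 2.4 CPM at 72h AEL, 0.393, 0.768 and 1.64 CPM at 96h AEL and 0.906, 1.29 and 0.637 CPM at 120h AEL. Each later library was below those of 72h AEL, and the fall to 120h AEL was -1.42 ± 0.40 (SE, adjusted p = 0.0328), or -2.46 with the length trend taken out (adjusted p = 0.00823). That call was lost with library size as the scale (-0.81, adjusted p = 0.138), with all stages in one fit (adjusted p = 0.0789) and without 72h C, 120h A or 120h C (adjusted p = 0.0626 to 0.109).

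Summed over members, each family was highest at 120h AEL, and *beat* and *side* had already gone up at 96h AEL. The *dpr* genes summed to 39.95 ± 12.7, 32.9 ± 5.40 and 84.1 ± 13.8 CPM at the successive stages (SD, n = 2, 3 and 3). The DIP genes summed to 5.65 ± 0.52, 4.43 ± 1.07 and 9.94 ± 0.997 CPM, the *beat* genes to 6.34 ± 0.62, 13.9 ± 1.31 and 26.0 ± 1.83 CPM, and the *side* genes to 24.4 ± 6.92, 60.8 ± 4.62 and 104.1 ± 14.4 CPM. With library size as the scale, the means of *dpr* (32.8 and 35.7 CPM) and DIP (4.52 and 4.82 CPM) at 72h and 96h AEL changed order, and those of *beat* and *side* did not. Within a family the sum rested on few genes: at 120h AEL *beat-IIIc* held 63.1% of the *beat* sum, *side-V* 39.7% of the *side* sum, *DIP-delta* 25.8% of the DIP sum and *dpr17* 25% of the *dpr* sum. These sums were not tested. The trend with coding length, which touches the *side* genes most, was not taken out of them. Per kb of coding sequence, the sums at 120h AEL were 63.0 ± 10.7 CPM for *dpr*, 31.6 ± 4.52 for *side*, 22.1 ± 1.74 for *beat* and 6.22 ± 0.69 for DIP. These sums also depend on the number of genes, which was 20, 8, 14 and 10. The medians over members were 1.42, 2.22, 0.233 and 0.373, so that *side* was above *dpr* and DIP above *beat* by this measure.

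**Figure D3:**
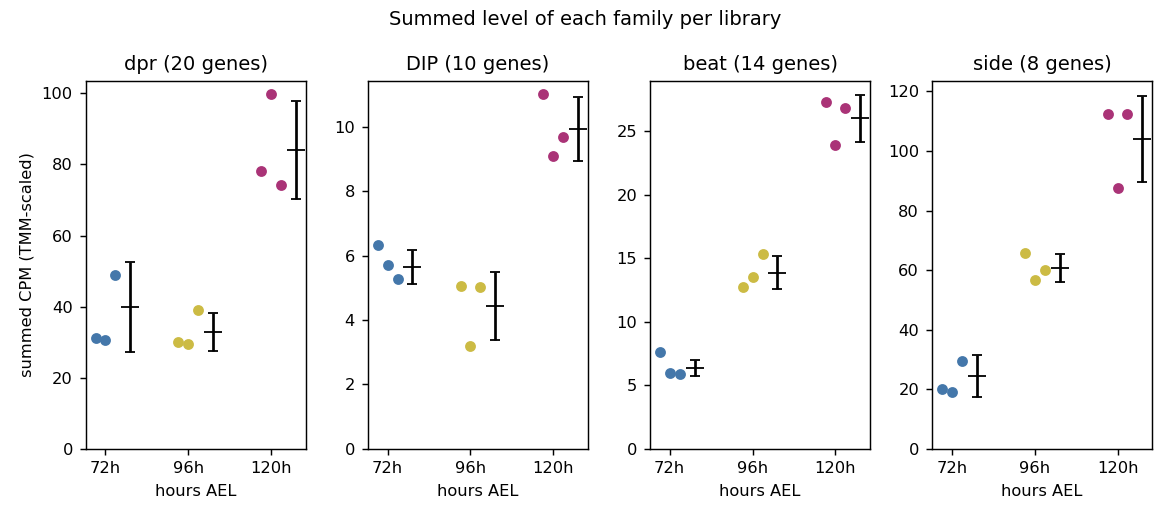
Summed TMM-scaled CPM of each family in each library (points) at 72h, 96h and 120h AEL, with the stage mean and SD beside them (bars, n = 2 at 72h AEL, where A and B count as 1 sample, and n = 3 at 96h and 120h AEL). In each of the 4 panels the 3 libraries of 120h AEL lie above the other 6, and *beat* and *side* also separate 96h from 72h AEL.

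Proteins of these families act in pairs, so the members were also read by binding partner. The pairs were a chosen list of 11 known to bind, and other members were in none of them. Among those left out were the starting genes *dpr1*, *dpr5*, *dpr9*, *DIP-theta*, *beat-IIIa*, *beat-IIIb* and *beat-IIIc*, so the counts describe this list only. Of these 11 pairs, 1 had both genes starting by 120h AEL, *DIP-delta* with *dpr12*. At a threshold of 0.5 CPM *dpr12* did not start. In 5 pairs 1 gene started: *dpr10* but not *DIP-alpha*, *side-II* but not *beat-VI*, and *side-VI* but not *beat-Va*, *beat-Vb* or *beat-Vc*. In the other 5 neither did, which were *DIP-alpha* with *dpr6*, *DIP-gamma* with *dpr11*, *side* with *beat-Ia* and *side-IV* with *beat-IIa* and *beat-IIb*. Per kb of coding sequence at 120h AEL, *dpr12* was at 6.01 CPM and *DIP-delta* at 1.82, *side* at 2.71 and *beat-Ia* at 2.36, while *side-IV* was at 10.02 and its partners *beat-IIa* and *beat-IIb* at 0.282 and 0.745. A bulk sample does not tell whether both genes of a pair are used in the same cells or in neighbouring ones, and fewer cells with a transcript cannot be told apart from less of it per cell.

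Several partners stayed under 1 CPM in all libraries. *dpr6* had 0.433, 0.191 and 0.991 CPM at 72h AEL, 0.664, 0.634 and 0.479 CPM at 96h AEL and 0.623, 0.396 and 0.469 CPM at 120h AEL, and *dpr11*, known in the fly eye from one subtype of R7 photoreceptor, had 0.303, 0.305 and 0.289 CPM at 72h AEL, 0.197, 0.1 and 0.2 CPM at 96h AEL and 0.113, 0.297 and 0.268 CPM at 120h AEL. *beat-VI* had 0.13, 0.191 and 0.206 CPM at 72h AEL, 0, 0.134 and 0.0399 CPM at 96h AEL and 0.17, 0.148 and 0.067 CPM at 120h AEL. Counts of *dpr11* were 3 to 8 in every library and those of *beat-VI* 0 to 6, and their stages overlapped except that *dpr11* at 72h AEL was above 96h AEL. *beat-Va* had 0.0433, 0.0762 and 0.206 CPM at 72h AEL, 0, 0.0334 and 0.0799 CPM at 96h AEL and 0.0283, 0 and 0 CPM at 120h AEL, *beat-Vb* had 0.737, 0.305 and 0.124 CPM at 72h AEL, 0.197, 0.1 and 0.2 CPM at 96h AEL and 0.311, 0.0989 and 0.101 CPM at 120h AEL, and *beat-Vc* had 0.433, 0.152 and 0.0826 CPM at 72h AEL, 0.0246, 0.0668 and 0 CPM at 96h AEL and 0.0283, 0.0495 and 0.0335 CPM at 120h AEL. For these 3 partners of *side-VI* the highest library was one of 72h AEL, and at 120h AEL the counts were 0 or 1 in *beat-Va*, 1 in *beat-Vc* and 2 to 11 in *beat-Vb*. Of these 6 partners *dpr11*, *beat-VI*, *beat-Va* and *beat-Vc* were too low to be tested. On few counts, the 72h AEL libraries of *beat-Vc* were above all later ones, and those of *beat-Va* were above 120h AEL. Whether the stages differ in these genes was not tested.

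**Figure D4:**
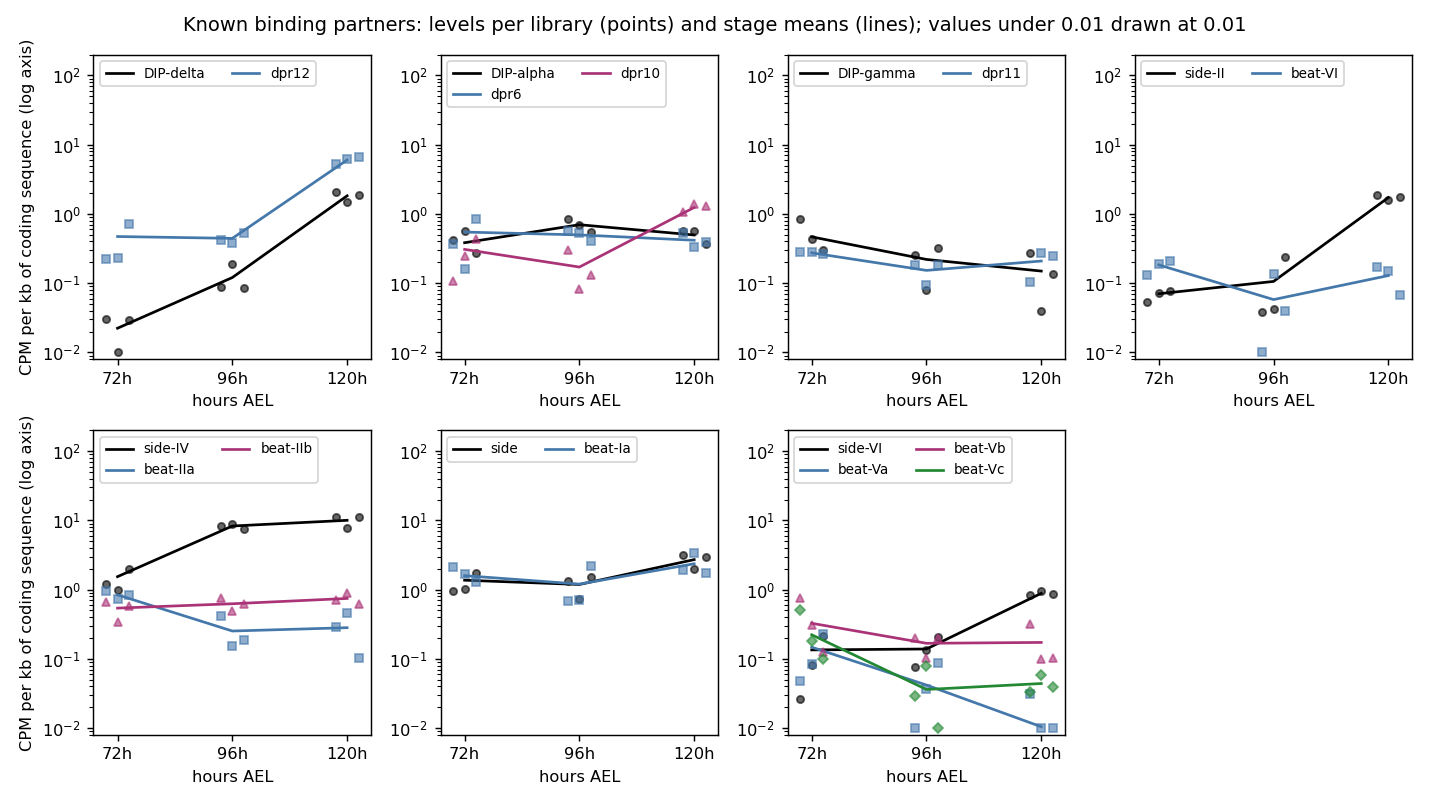
CPM per kb of coding sequence (log axis) in each library (points) and as stage means (lines) for 7 groups of known binding partners at 72h, 96h and 120h AEL, with values under 0.01 drawn at 0.01. *DIP-delta* and *dpr12* go up together to 120h AEL, whereas *side-II*, *side-VI* and *dpr10* go up beside partners that stay low or level or go down. Of the partners of *side-VI*, *beat-Va* and *beat-Vc* stand lower at 120h than at 72h AEL, on few counts.

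Several members lie close together in the genome, and some of these neighbours differed in when or whether they started. In the BDGP6 annotation, which is not the release used for mapping, 19 of the 52 members have another member within 200 kb. The 3 *beat-III* genes on 2L all started by 120h AEL, though *beat-IIIc* did so a stage earlier and at a higher level per kb. In contrast *dpr5* started while *dpr4*, the next gene on 3R, had at most 0.650 CPM in any library. On 3L *dpr10* started and *dpr6* did not, and on 2L *DIP-theta* started and *DIP-eta* did not. The groups *beat-Ia*, *beat-Ib* and *beat-Ic* on 2L and *beat-Va*, *beat-Vb* and *beat-Vc* on 3R held no starting gene. By chromosome, 21 members are on 3R, 16 on 2L, 5 on 2R, 5 on X, 4 on 3L and 1 on 4. Members of a family resemble each other in sequence, the reads were 50 bp and counting took no account of strand. Whether reads were shared between members, or with a gene on the opposite strand, was not tested.

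The co-expression clusters deposited by the authors, which were made from the same counts and are therefore no separate evidence, hold 17 of the 52 members. Cluster 13 held 7 (*dpr5*, *dpr9*, *dpr12*, *dpr18*, *dpr19*, *side-II* and *side-VII*), cluster 12 held *beat-IIIc*, *side-IV* and *side-V*, and cluster 5 held *dpr3*, *dpr7* and *beat-Ia*. *side* and *side-III* were in cluster 11, *dpr16* in cluster 9 and *dpr17* in cluster 6. No DIP gene carried a cluster number, and of the 12 starting genes 5 did.

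The tissue itself also changed over these stages, and the members' values stand beside it. Of 13 listed photoreceptor and eye neuron markers 12 were measured, and their summed level was 29.7 to 37.8, 255 to 367 and 828 to 944 CPM at the successive stages. From 72h to 120h AEL all 12 rose, among them *gl* and *sev*, which act in photoreceptor differentiation and the choice of the R7 fate. Pan-neuronal and synaptic markers summed to 78.2 to 106, 145 to 214 and 263 to 356 CPM, and glial markers to 286 to 296, 437 to 522 and 499 to 577 CPM. Within these lists members differed, since from 72h to 120h AEL 5 of 10 pan-neuronal genes tested rose, and 4 of 10 glial genes rose and 4 fell. Markers of brain and ventral cord neurons ran the other way, with 256 to 351, 10.1 to 19.3 and 6.07 to 8.81 CPM, and at 72h AEL most of this was *ple* (208 CPM on average) and *Ddc* (79.9 CPM), enzymes of dopamine synthesis that the cuticle also uses. Of its 13 measured genes 5 stayed under 1 CPM in all libraries. Muscle markers summed to 15010 to 19930, 2360 to 8504 and 465 to 928 CPM and hemocyte markers to 329 to 1391, 71.4 to 345 and 193 to 1120 CPM. Fat body markers summed to 3182 to 4387, 1799 to 6575 and 131.8 to 4691 CPM, and 3 of the 6 rose from 72h to 120h AEL. The part of any of these tissues in the levels of the wiring genes was not tested.

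As a wider frame, 34 of 36 listed genes were measured. They encode surface or secreted proteins of the immunoglobulin and leucine-rich repeat families, such as Robo, Dscam, Kek and Fas proteins. In the first transition 21 of 33 rose and 1 fell, with 1.63 as the median on the log2 scale. In the second 13 of 34 rose and 1 fell (median 0.42), and over both together 28 of 34 rose and 2 fell (median 2.52). Of the wiring genes 4 of 30 rose in the first of these transitions and 18 of 34 in the second. No test of the difference between the lists was made. The highest of the list per kb at 120h AEL were *ImpL2*, *Lac*, *Ama* and *Fas3*, at 251, 201, 167 and 165 CPM, beside 14.3 CPM for *beat-IIIc*.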

How the data were processed

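Whole eye-antennal discs of *D. melanogaster* (OregonR) were measured by RNA-seq in 9 libraries, 3 per stage, grouped by the stage in their labels. The authors made the deposited counts from 50 bp single-end reads, which were mapped with Bowtie2 against FlyBase r5.55, 1 coding sequence (the longest) per gene, and tallied with SAMtools 0.1.19. They are not normalized, take no account of strand, and come with 0 columns of other series. The members, the lists of markers and of other surface or secreted proteins and the binding pairs were chosen with earlier results of these data known. Symbols came from the BDGP6 annotation (13406 of 13676 IDs matched).

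Computations used R 4.3.3 with edgeR 4.0.16 and DESeq2 1.42.0, and Python 3.11.15. Levels are TMM-scaled CPM, and levels of different genes are compared only per kb of coding sequence. Pairs of libraries within a stage were checked by a chi-square of their counts (genes with 20 counts or more), and a pair with under 1.5 per gene was summed, which applied to 72h A and B. Each pair of stages had a separate fit. The test was edgeR's quasi-likelihood test after filterByExpr, two-sided, with Benjamini-Hochberg adjustment over all genes tested and a threshold of 0.05. The authors' filter was replaced because it leaves out genes at low counts, where most members lie, and DESeq2, their tool, was an alternative. The labels call the libraries biological replicates, and p-values measure the spread between these pools of discs. SE was taken from the F statistic as |log2 fold change| / sqrt(F). Every member may be named. Values per library are given for members called or starting, for up to 3 members of a family with the highest level per kb at 120h AEL and for binding pairs. *DIP-epsilon* was added after its values were seen. Same-lettered libraries did not deviate together in all pairs (r from -0.375 to 0.174), so letters were not used as pairs. Alternatives were other scalings, filters and fits, an offset for coding length, the letter as a block and leaving out each library.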

Additional observations from a re-analysis of the deposited data

How the results depend on the processing

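Of 662 alternative values for the 44 changes of single members that passed the test, 601 kept their direction and their side of the threshold, 60 kept the direction alone and 1 reversed, the log2 fold change of *side-III* from 72h to 120h AEL, which was 1.31 and became -0.0094 with the replicate block and the length offset (adjusted p = 0.984). In every alternative that could test them, 1 of 5 calls from 72h to 96h AEL (*side-IV*), 9 of 18 from 96h to 120h AEL and 15 of 21 from 72h to 120h AEL were kept. The cause of the losses was not tested.

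From 72h to 96h AEL the 4 members higher became 7 with all stages in one fit, and ranged from 1 (without 96h B) to 4 with single libraries left out. The 1 member lower became 0 with library size as the scale, with no filter and with the filter after HTSFilter, which left 9 members to test, 2 with the replicate block, and 3 with DESeq2, with all stages in one fit, with the replicate block and length offset and with 72h A and B apart, and it ranged from 0 (without 72h A, 72h C or 96h B) to 4 (without 96h C). Genes called ranged from 762 (without 96h B) to 4265 against 4000, with 1847 without 96h A.

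From 96h to 120h AEL the 18 members higher became 9 after the HTSFilter method, which left 14 to test, and ranged from 10 (without 120h C) to 19, with 11 without 96h B. The 0 members lower became 1 with DESeq2 and with the length offset, and ranged from 0 to 1 (without 96h C). The 1528 genes called became 2326 with the length offset and ranged from 788 (without 120h C) to 1788, with 836 without 96h B and 910 without 120h A.

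From 72h to 120h AEL the 20 members higher became 11 after the HTSFilter method, which left 16 to test, and ranged from 15 to 20. The 1 member lower became 0 with library size as the scale, after the HTSFilter method and with all stages in one fit, 3 with the replicate block or with 72h A and B apart and 5 with the block and length offset, and ranged from 0 (without 120h A or 120h C) to 2 (without 120h B). Genes called ranged from 2953 (without 120h C) to 5500 against 5277, with 3236 without 120h A.

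The 12 starting members became 6 at 0.5 CPM and ranged from 12 to 13. With library size as the scale, the summed level was 99.5 CPM for *dpr*, 11.8 for DIP, 30.9 for *beat* and 124 for *side* at 120h AEL, 65.9 for *side* at 96h AEL, and 4.52 for DIP and 5.07 for *beat* at 72h AEL. With single libraries left out, the sums at 72h, 96h and 120h AEL ranged over 30.96 to 40.1, 29.8 to 34.7 and 76.2 to 88.99 CPM for *dpr*, 5.501 to 6.02, 4.12 to 5.05 and 9.39 to 10.4 for DIP, 5.94 to 6.78, 13.1 to 14.4 and 25.4 to 27.0 for *beat*, and 19.5 to 24.6, 58.3 to 62.9 and 99.9 to 112.4 for *side*.

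The replicate block, the one paired analysis, gave 4, 17 and 23 members higher in the 3 comparisons and ended the calls of *beat-IIIc* (adjusted p = 0.089) and *beat-IIIb* (adjusted p = 0.0746) from 96h to 120h AEL. Same-lettered libraries correlated at -0.375, 0.145 and -0.284 for 72h with 96h AEL, at 0.137, 0.0869 and 0.0631 for 96h with 120h AEL, where each 96h AEL library correlated best with its own letter, and at -0.156, 0.174 and 0.114 for 72h with 120h AEL. Depth limits the members under 1 CPM, and n = 2 at 72h AEL limits both comparisons with that stage.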
